A study of Homo sapiens with 60 samples.

Results

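The 9 genes described here encode ATP-binding cassette (ABC) transporters that move drugs, conjugated metabolites and lipids out of cells: ABCB1, ABCB4, ABCC1, ABCC2, ABCC3, ABCC4, ABCC5, ABCC6 and ABCG2. They were taken by name from the 60675 genes of the count table, each matched one Ensembl identifier, and all 9 had enough counts to be tested among 16644 genes. The set was chosen with earlier results of these data known, so its counts beside those of all genes are descriptions. Transcript levels were measured by RNA-seq in HepG2, a human hepatocellular carcinoma cell line, after 24 h with water extracts of herbs and herb mixtures of Korean medicine. The extracts came from 2 single herbs, Menthae Herba (mint) and Saposhnikoviae Radix, and from 5 mixtures, Saengmaek-san, Guibi-tang, Soyo-san, Okbyeongpung-san and Soshiho-tang. Each was given at 20, 100 and 500 µg/mL with 3 libraries a dose, except Soshiho-tang with 1 library a dose. The 3 vehicle libraries received dimethyl sulfoxide, at 0.1% by the sample labels (the series text names 2%). All 60 libraries come from this 1 tumour line, and no label calls replicates separate cultures, so a p-value here reflects only how far these samples spread, which may be technical.

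In hepatocytes, efflux transporters complete the removal of foreign compounds that phase I and phase II enzymes have oxidised or conjugated. P-glycoprotein (ABCB1), MRP2 (ABCC2), BCRP (ABCG2) and the phospholipid translocase MDR3 (ABCB4) sit in the canalicular membrane and export into bile, while MRP1 (ABCC1), MRP3 (ABCC3) and MRP4 (ABCC4) export across the sinusoidal side or in other tissues. Several of these genes are known to be induced through the xenobiotic sensors PXR, CAR, AHR and NRF2.

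RefSeq's promoter table (GRCh38.p14) held 12 windows for 6 of the 9 genes. The 250 bases before each start were searched on both strands for the core of the antioxidant response element (ARE, TGACNNNGC, bound by NRF2), the core of the xenobiotic response element (XRE, GCGTG, bound by AHR) and the GC box (GGGCGG). The stretches below belong to the 2 genes whose level varied most between groups, with motif matches in capitals. The first is the whole window of ABCC2, chr10:99782390-99782639 on the plus strand. The second is the 135 bases of an ABCG2 window that lie outside its annotated exons, chr4:88159025-88159159 on the minus strand. That window was picked from the 5 of ABCG2 for holding both an XRE core and a GC box.
ABCC2: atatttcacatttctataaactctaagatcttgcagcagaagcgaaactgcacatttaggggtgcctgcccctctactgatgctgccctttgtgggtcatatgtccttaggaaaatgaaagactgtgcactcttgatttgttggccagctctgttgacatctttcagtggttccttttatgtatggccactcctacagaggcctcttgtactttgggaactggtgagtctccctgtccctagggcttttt
ABCG2: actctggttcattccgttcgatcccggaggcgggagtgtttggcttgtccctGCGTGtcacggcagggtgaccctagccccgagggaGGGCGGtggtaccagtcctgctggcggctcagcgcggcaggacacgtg

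The ABCC2 window held none of these letters. The ABCG2 stretch held 1 XRE core, 198 bases before the start at position 88158909, and 1 GC box, 163 bases before it, which do not overlap; its whole window held 2 of each. Of the 5 ABCG2 windows, the one with a start at 88158859 also held 2 of each, the one at 88158639 held 2 XRE cores, and those at 88231626 and 88159290 held none. The single window of ABCC4 held 1 ARE core and 2 XRE cores, and that of ABCB1 with a start at position 87600884 held 1 XRE core. The window of ABCC5 held 1 GC box, and both windows of ABCC6 and the other window of ABCB1 held none. Of 35114 RefSeq windows of the same length, 10.91% hold the ARE core, 32.22% the XRE core and 42.64% the GC box, so a match is common and describes letters only.

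Library totals ran from 20446542 to 32386486 counts, and levels are given as CPM, read counts scaled to a common library size by TMM. All 8 hepatocyte markers checked, among them ALB and HNF4A, were present, with a summed level of 37300 to 50600 CPM. The 6 fibroblast markers summed to 8.51 to 25.7 CPM, nearly all PDGFRB, and DCN and COL1A2 had a median of 0. The 5 leukocyte markers summed to 31.1 to 51.5 CPM, nearly all CD68, and PTPRC and CD3E had a median of 0. The nuclear RNA MALAT1 was at 174 to 282 CPM in 31 libraries and 387 to 551 CPM in 29. Vehicle, Menthae Herba and Saposhnikoviae Radix lie wholly in the lower class, Soyo-san, Okbyeongpung-san and Soshiho-tang wholly in the higher one, and Saengmaek-san and Guibi-tang hold both. A comparison of 500 with 20 µg/mL within Menthae Herba, Saposhnikoviae Radix, Soyo-san or Okbyeongpung-san therefore stays inside 1 class. For Soyo-san and Okbyeongpung-san a difference from vehicle cannot be told apart from the class in the fit without it. Vehicle also has a label code of its own, shared with no extract, so vehicle against extract cannot be told apart from that code. The sample labels name dimethyl sulfoxide for vehicle only, so a difference in solvent cannot be told apart from the extract in these comparisons either. By chi-square per degree of freedom over genes, 4 libraries were at 13.03 to 18.69 against both others of their group, while those others were at 3.214 to 4.809 from each other. They are vehicle replicate 1, Guibi-tang 20 µg/mL replicate 1, Menthae Herba 20 µg/mL replicate 3 and Okbyeongpung-san 20 µg/mL replicate 3. Without any one of the last 3, the count of calls between 500 and 20 µg/mL was 23, as with all libraries.

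In vehicle, MRP2 was the most abundant of the 9 transcripts per length of annotated exons. ABCC2 was at 35.0 ± 1.81 CPM per kilobase (SD, n = 3), ABCC1 at 20.4 ± 1.16, ABCC6 at 15.1 ± 0.715, ABCB1 at 11.2 ± 0.0563 and ABCC3 at 6.33 ± 0.236. These first 5 were each separated from the next by more than the vehicle libraries' range. ABCC5 followed at 2.72 ± 0.0789 CPM per kilobase, ABCG2 at 2.21 ± 0.13, ABCB4 at 2.11 ± 0.119 and ABCC4 at 1.81 ± 0.154. The libraries of ABCG2 and ABCB4 overlap, and by the longest protein-coding transcript ABCG2 moves to the last place at 2.49 CPM per kilobase, after ABCB4 at 3.83 and ABCC4 at 2.67.

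**Figure D1:**
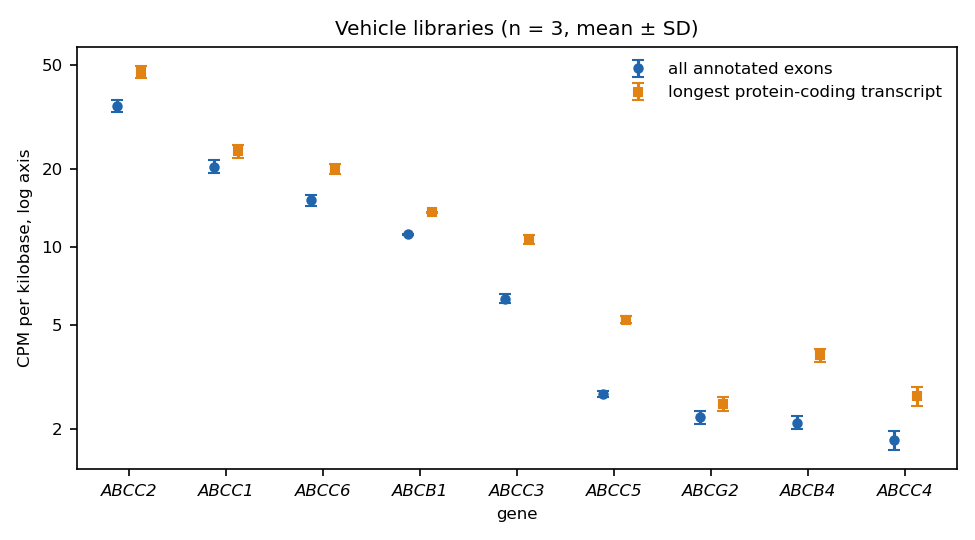
CPM per kilobase (log axis) of each gene in the vehicle libraries, as mean ± SD of 3, with length taken as all annotated exons (circles) or as the longest protein-coding transcript (squares). ABCC2 stands highest by both lengths at 35.0 and 47.2, and the order of the last 3 genes depends on the length used.

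Between 20 and 500 µg/mL, ABCC2 and ABCG2 each rose in 5 of the 6 replicated extracts, ABCC1 in 4, ABCC3 in 3, ABCB1 in 2 and ABCC5 in 1. ABCC6 fell in 3, and ABCB4 and ABCC4 passed the test in none. Each gene was compared in each of 6 replicated extracts with edgeR (quasi-likelihood F test), p was adjusted by Benjamini-Hochberg over all 16644 genes, and a result was called under 0.05. Of 54 such results 20 were higher and 3 lower at the higher dose. Over all genes 4.43% of the corresponding results were higher and 3.93% lower.

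By extract, Menthae Herba had 6 of the 9 genes higher and 1 lower at 500 µg/mL, where 32.1% of all genes were called in either direction. Soyo-san had 5 higher and 1 lower (7.58% of all genes), and Guibi-tang 4 higher and 1 lower (8.12%). Saengmaek-san had 3 higher (1.96%) and Saposhnikoviae Radix 2 higher (0.397%). Okbyeongpung-san had 0 called by edgeR and by DESeq2 (0.024% of all genes by edgeR), with 1 of 9 at an unadjusted p under 0.05. With the library class as a covariate 23 of the 54 results were called, as many as without it. The median log2 change of the 9 was 0.17, 0.17, 0.17, 0.15, 0.10 and 0.06 in this order of extracts, and the median over all genes lay between -0.01 and 0. In bulk RNA a change in the share of cells that express a gene and a change in RNA per cell cannot be told apart. The fibroblast marker sum, nearly all PDGFRB, moved with the Menthae Herba results: its range was 25.0 to 25.7 CPM at 500 µg/mL, 15.1 to 16.3 at 20 and 13.1 to 14.6 in vehicle. The markers did not move together. Of the 2 with enough counts to be tested, 1 was called higher and 1 lower at 500 µg/mL against vehicle. Between 500 and 20 µg/mL 1 was called higher and 0 lower. Of these 6 markers 5 had a median under 1 CPM, and COL1A2 and DCN reached at most 0.0481 and 0.0382 CPM in any library. With Guibi-tang the leukocyte marker sum was 47.1 to 51.5 CPM at 500 and 38.0 to 41.9 at 20 µg/mL, with 48 to 51.2 in vehicle. Its hepatocyte marker sum was 40900 to 43600 CPM at 500 and 45500 to 48900 at 20 µg/mL, and 3 of 8 hepatocyte markers were called lower. Other extracts shifted too. The hepatocyte sum was lower at 500 with Soyo-san (42900 to 44400 against 45400 to 47900 at 20). It was also lower with Saposhnikoviae Radix (45100 to 46500 against 46800 to 47700) and higher with Saengmaek-san (47700 to 49600 against 46600 to 47300). The leukocyte sum with Menthae Herba was 47.5 to 51 CPM at 500 and 36.6 to 47.4 at 20 µg/mL. The part of these markers in the results was not tested.

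**Figure D2:**
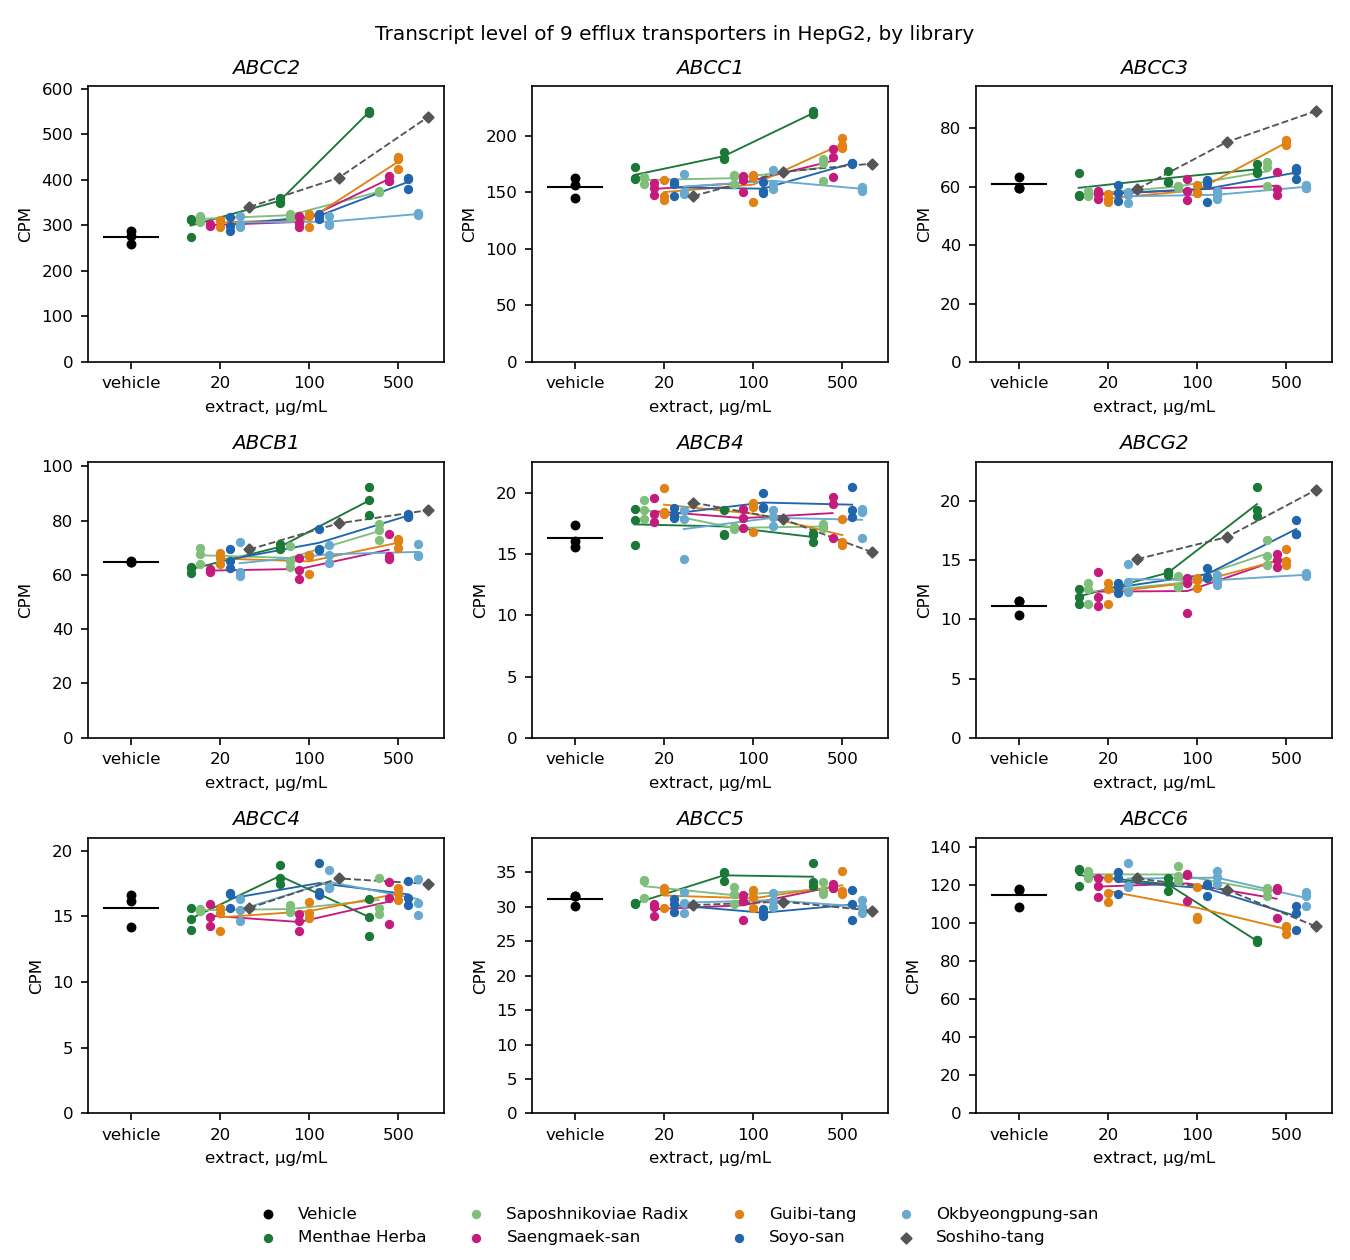
CPM of each gene in every library, against vehicle and extract concentration in µg/mL. Points are libraries, lines join dose means, and Soshiho-tang has 1 library a dose (diamonds, dashed). The 3 Menthae Herba libraries at 500 µg/mL reach 547 to 551 CPM for ABCC2, while vehicle lies at 259 to 287 CPM.

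ABCC2 (chr10:99782640-99852594, GENCODE v29 on GRCh38, ENSG00000023839) encodes MRP2, which exports bilirubin glucuronides and glutathione conjugates into bile. The vehicle libraries were at 287, 259 and 277 CPM (274 ± 14.2, SD, n = 3). With Menthae Herba they were at 313, 312 and 273 CPM at 20 µg/mL, 360, 352 and 350 at 100, and 548, 547 and 551 at 500. The libraries at 500 µg/mL lie far above all others of this extract, and those at 100 lie between them and the libraries at 20. The change from 20 to 500 µg/mL was 0.87 ± 0.04 log2 units (SE), a ratio of means of 1.83 (edgeR, adjusted p = 1.6e-22).

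ABCC2 rose in 4 of the other 5 extracts too. With Guibi-tang the libraries were at 312, 308 and 297 CPM at 20 µg/mL and 446, 423 and 450 at 500, a log2 change of 0.52 ± 0.04 (adjusted p = 4.5e-13). Saengmaek-san gave 300, 302 and 298 against 398, 397 and 408 CPM, a change of 0.42 ± 0.04 (adjusted p = 2.5e-09). In both extracts the libraries at 100 µg/mL, at 295 to 325 CPM, overlap those at 20, and the libraries at 500 lie above both.

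Soyo-san raised ABCC2 from 317, 299 and 287 CPM at 20 µg/mL to 403, 405 and 379 at 500, by 0.39 ± 0.04 log2 units (adjusted p = 2.5e-09). Saposhnikoviae Radix raised it from 314, 320 and 308 to 373, 373 and 374 CPM, by 0.25 ± 0.04 (adjusted p = 0.00069). With Okbyeongpung-san the libraries were at 295, 303 and 320 CPM at 20 µg/mL and 327, 325 and 322 at 500, a difference of 0.08 ± 0.04 that was not called (adjusted p = 0.99). Those groups do not overlap but nearly touch. The 5 calls of ABCC2 held under every alternative fit and without any single library.

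ABCG2 (chr4:88090264-88231322, minus strand, ENSG00000118777) encodes BCRP, a dimeric exporter of sulfated conjugates, urate and many anticancer drugs. It was at 11.6, 10.4 and 11.5 CPM in vehicle (11.2 ± 0.658). With Menthae Herba it went from 11.9, 12.6 and 11.3 CPM at 20 µg/mL through 14, 13.8 and 14 at 100 to 18.7, 19.3 and 21.2 at 500. The 3 doses do not overlap, and the change from 20 to 500 was 0.73 ± 0.08 log2 units (adjusted p = 2.7e-11). Soyo-san raised it from 13.1, 12.8 and 12.3 to 17.2, 17.2 and 18.4 CPM, by 0.47 ± 0.08 (adjusted p = 1.1e-05).

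The other 3 calls of ABCG2 were smaller and each depended on single libraries. With Saposhnikoviae Radix it changed from 13.1, 11.3 and 12.6 CPM at 20 µg/mL to 14.6, 15.3 and 16.7 at 500, by 0.34 ± 0.08 (adjusted p = 0.02). The call was lost without replicate 2 or 3 of the 500 dose (adjusted p = 0.055 and 0.25) and without replicate 2 or 3 of the 20 dose (0.24 and 0.052). All libraries at 500 µg/mL lie above all those at 20.

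Guibi-tang gave 13.1, 12.6 and 11.3 CPM against 14.6, 14.9 and 15.9, a change of 0.30 ± 0.08 (adjusted p = 0.0064), lost without replicate 3 at 500 (0.052) or replicate 3 at 20 µg/mL (0.096). Saengmaek-san gave 14, 11.9 and 11.1 against 15.5, 15.0 and 14.4 CPM, a change of 0.28 ± 0.08 (adjusted p = 0.044). It was lost without replicate 1 or 2 at 500 (0.2 and 0.087) or replicate 2 or 3 at 20 µg/mL (0.17 and 0.24), and at 0.33 in a fit with only the groups compared. That fit also lost the call of Saposhnikoviae Radix, at 0.16. Okbyeongpung-san had 12.3, 13.2 and 14.7 CPM at 20 and 13.7, 13.9 and 13.7 at 500 µg/mL, which overlap.

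Among all 16644 genes, 10 (0.0601%) were called higher at 500 than at 20 µg/mL in at least 5 of the 6 extracts, and ABCC2 and ABCG2 are among these 10. Both were in a set chosen with earlier results of these data known.

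**Figure D3:**
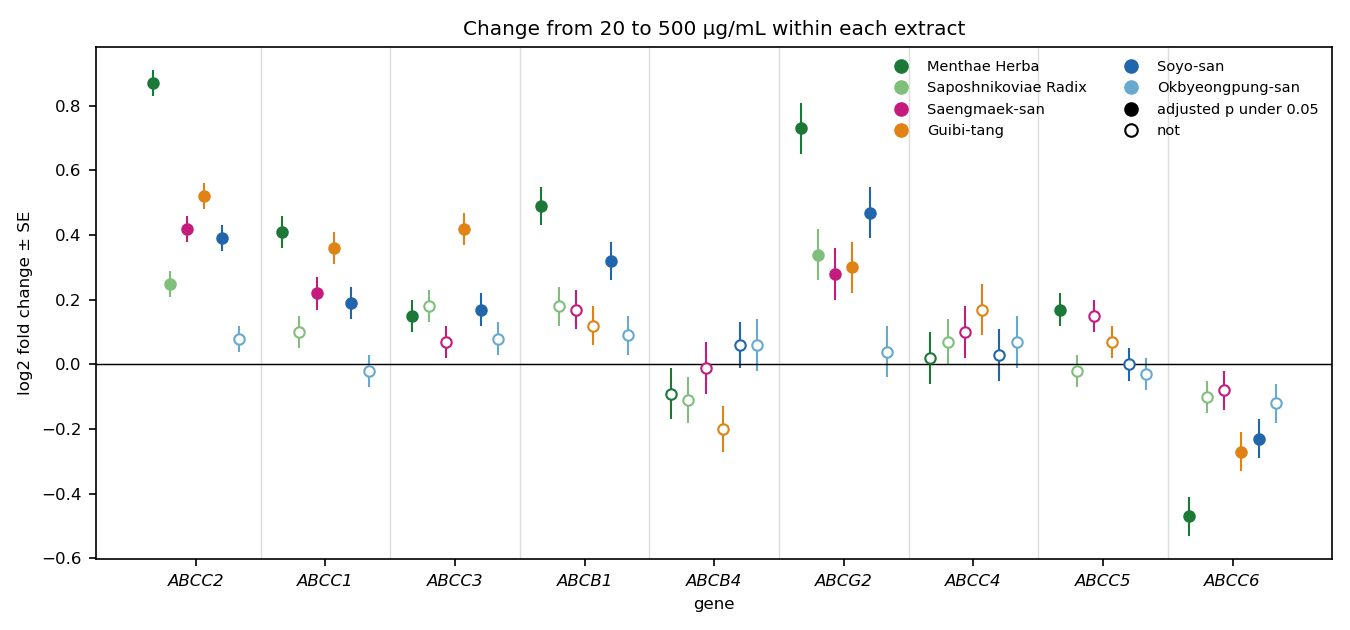
Log2 fold change from 20 to 500 µg/mL ± SE for each gene (horizontal axis) and each of the 6 replicated extracts (colours), filled where the adjusted p is under 0.05. ABCC2 runs from 0.08 with Okbyeongpung-san to 0.87 with Menthae Herba, and ABCC6 lies below 0 in all 6 extracts.

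ABCC1 (chr16:15949577-16143074, ENSG00000103222) encodes MRP1, an exporter of glutathione conjugates and leukotriene C4 that is low in normal hepatocytes. Vehicle libraries were at 145, 156 and 162 CPM. Menthae Herba raised it from 161, 162 and 172 CPM at 20 µg/mL to 219, 219 and 222 at 500, by 0.41 ± 0.05 log2 units (adjusted p = 1e-08). Guibi-tang raised it from 161, 147 and 143 to 192, 189 and 198 CPM, by 0.36 ± 0.05 (adjusted p = 2e-06), also without overlap.

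Further calls of ABCC1 rested on single libraries. Saengmaek-san changed it by 0.22 ± 0.05, from 158, 153 and 148 to 188, 181 and 164 CPM (adjusted p = 0.015). That call was lost without replicate 1 or 2 at 500 µg/mL (0.17 and 0.062), without replicate 3 at 20 (0.089) and in a fit with only the groups compared (0.23). Soyo-san changed ABCC1 from 159, 157 and 147 to 176, 175 and 176 CPM, by 0.19 ± 0.05 (adjusted p = 0.019), lost without replicate 3 at 20 µg/mL (0.12). With Saposhnikoviae Radix and Okbyeongpung-san the log2 differences were 0.10 and -0.02 and were not called.

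ABCC3 (chr17:50634777-50692252, ENSG00000108846) encodes MRP3, which exports glucuronides and bile acids across the sinusoidal membrane. Among the 6 replicated extracts its largest change was with Guibi-tang, from 57.6, 55.7 and 54.8 CPM at 20 µg/mL to 76.2, 74.4 and 74.9 at 500, by 0.42 ± 0.05 log2 units (adjusted p = 1.3e-08). At 100 µg/mL of this mixture the libraries were at 57.9 to 60.5 CPM, next to the vehicle range of 59.5 to 63.5. The libraries at 20 µg/mL lie below the vehicle range and those at 500 far above it.

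Smaller calls of ABCC3 came with Soyo-san at 0.17 ± 0.05 (adjusted p = 0.035) and Menthae Herba at 0.15 ± 0.05 (adjusted p = 0.024). The call with Soyo-san was lost without replicate 2 or 3 at 500 (0.13 and 0.091) or at 20 µg/mL (0.19 and 0.069), and with no filter on low counts (0.15). The call with Menthae Herba was lost without replicate 1 or 2 at 20 (0.13 and 0.11), without replicate 2 at 500 µg/mL (0.1), with no filter (0.11) and with only the groups compared (0.081).

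ABCB1 (chr7:87503633-87713323, minus strand, ENSG00000085563) encodes P-glycoprotein, the exporter of many hydrophobic drugs and a known target of PXR. It was at 64.6, 65.2 and 64.9 CPM in vehicle. Menthae Herba raised it from 63.0, 62.5 and 60.8 CPM at 20 µg/mL to 87.5, 82.2 and 92.5 at 500, by 0.49 ± 0.06 log2 units (adjusted p = 6.6e-10). Soyo-san raised it from 65.1, 69.6 and 62.5 to 82.3, 81.5 and 81.8 CPM, by 0.32 ± 0.06 (adjusted p = 9e-05). Neither pair of groups overlaps, and both calls held without any single library.

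In the other 4 extracts ABCB1 changed by 0.09 to 0.18 log2 units and was not called. RUNDC3B, a gene on the opposite strand that overlaps ABCB1 without sharing exon bases, was at 1.18 to 2.4 CPM. ABCB4 (chr7:87401697-87480435, minus strand, ENSG00000005471) encodes MDR3, which moves phosphatidylcholine into bile, and lies next to ABCB1. It was at 15.6, 16.1 and 17.4 CPM in vehicle and its group means ran from 16.3 to 19.2 CPM. Its log2 differences between 500 and 20 µg/mL ran from -0.20 with Guibi-tang to 0.06.

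ABCC4 (chr13:95019829-95301475, minus strand, ENSG00000125257) encodes MRP4, an exporter of cyclic nucleotides, urate and bile acids. Its group means ran from 14.6 to 18.1 CPM and its log2 differences between 500 and 20 µg/mL from 0.02 to 0.17. Between these doses ABCC4 and ABCB4 were each called in 0 of 6 extracts by edgeR and in 0 by DESeq2, and each had an unadjusted p under 0.05 in 1 extract, Guibi-tang. At 100 µg/mL against vehicle edgeR called ABCC4 in 0 of 6 extracts and DESeq2 in 1, with 3 at an unadjusted p under 0.05. With Menthae Herba ABCC4 was at 17.4 to 18.9 CPM at 100 µg/mL (0.21 ± 0.07 against vehicle, edgeR, adjusted p = 0.052). It was at 14 to 15.6 at 20, 13.5 to 16.3 at 500 and 14.1 to 16.6 in vehicle. ABCC5 (chr3:183919934-184018015, minus strand, ENSG00000114770) encodes MRP5, an exporter of cyclic nucleotides and glutamate conjugates. It was called with Menthae Herba, from 30.5, 30.5 and 30.4 CPM at 20 µg/mL to 36.4, 33 and 33.6 at 500 (0.17 ± 0.05, adjusted p = 0.008). Without replicate 1 at 500 µg/mL the adjusted p was 0.08, and with no filter it was 0.075.

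ABCC6 (chr16:16148928-16223522, minus strand, ENSG00000091262) encodes MRP6, the liver transporter whose loss causes pseudoxanthoma elasticum, and was the 1 gene of the 9 called lower at the higher dose. The vehicle libraries were at 108, 118 and 118 CPM. Menthae Herba lowered it from 128, 128 and 119 CPM at 20 µg/mL to 91.1, 90.8 and 90.0 at 500, a log2 change of -0.47 ± 0.06 (adjusted p = 9.8e-10). Guibi-tang lowered it from 124, 116 and 111 to 98.7, 94.4 and 97.2 CPM, a log2 change of -0.27 ± 0.06 (adjusted p = 0.00046). In both extracts the 3 libraries at 500 lie below all vehicle libraries.

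Soyo-san lowered ABCC6 from 127, 115 and 124 to 109, 106 and 96.5 CPM, a log2 change of -0.23 ± 0.06 (adjusted p = 0.003), and the call was lost without replicate 3 at 500 µg/mL (0.073). In the other 3 extracts the differences were -0.08 to -0.12 and not called. ABCC6 has the partial pseudogene copies ABCC6P1 and ABCC6P2, at 52.1 to 79.4 and 4.74 to 8.85 CPM, and reads shared with them make the split of its counts uncertain. ABCC6P1 was also lower at 500 µg/mL, with a log2 change of -0.38 with Menthae Herba (adjusted p = 3.5e-09), -0.22 with Guibi-tang (0.00084), -0.20 with Soyo-san (0.0021) and -0.19 with Saengmaek-san (0.014). ABCC6P2 was called with Menthae Herba at -0.58 (0.00033).

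The change with dose differed between extracts for 6 of the 9 genes, where 18.5% of all genes did. The joint test of equal change from 20 to 500 µg/mL among 6 extracts gave an F of 36.3 for ABCC2 (adjusted p = 2.7e-13), 8.96 for ABCC1 (6.9e-05), 8.79 for ABCG2 (8.2e-05), 6.91 for ABCC6 (0.00071), 6.80 for ABCB1 (8e-04) and 6.22 for ABCC3 (0.0016). ABCC5, ABCB4 and ABCC4 had adjusted p of 0.12, 0.31 and 0.87.

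Extracts that share a code number in the labels were then compared in pairs. Menthae Herba raised ABCC2 by 0.62 ± 0.06 log2 units more than Saposhnikoviae Radix did (adjusted p = 3e-11), ABCG2 by 0.39 ± 0.11 (0.0064), ABCB1 by 0.32 ± 0.08 (0.0032) and ABCC1 by 0.32 ± 0.08 (0.0014). ABCC6 differed by -0.36 ± 0.08 (4e-04). These 5 of 9 genes stand beside 20% of all genes in that test.

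Guibi-tang raised ABCC3 by 0.35 ± 0.07 more than Saengmaek-san (adjusted p = 0.0046), where 1.15% of all genes were called. With only the groups compared this p was 0.079. Soyo-san raised ABCC2 by 0.31 ± 0.06 (0.0014) and ABCG2 by 0.44 ± 0.11 (0.017) more than Okbyeongpung-san, where 2.36% of all genes were called. The ABCG2 difference was lost without Soyo-san 500 µg/mL replicate 3 (0.056) or Okbyeongpung-san 20 µg/mL replicate 3 (0.096).

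**Figure D4:**
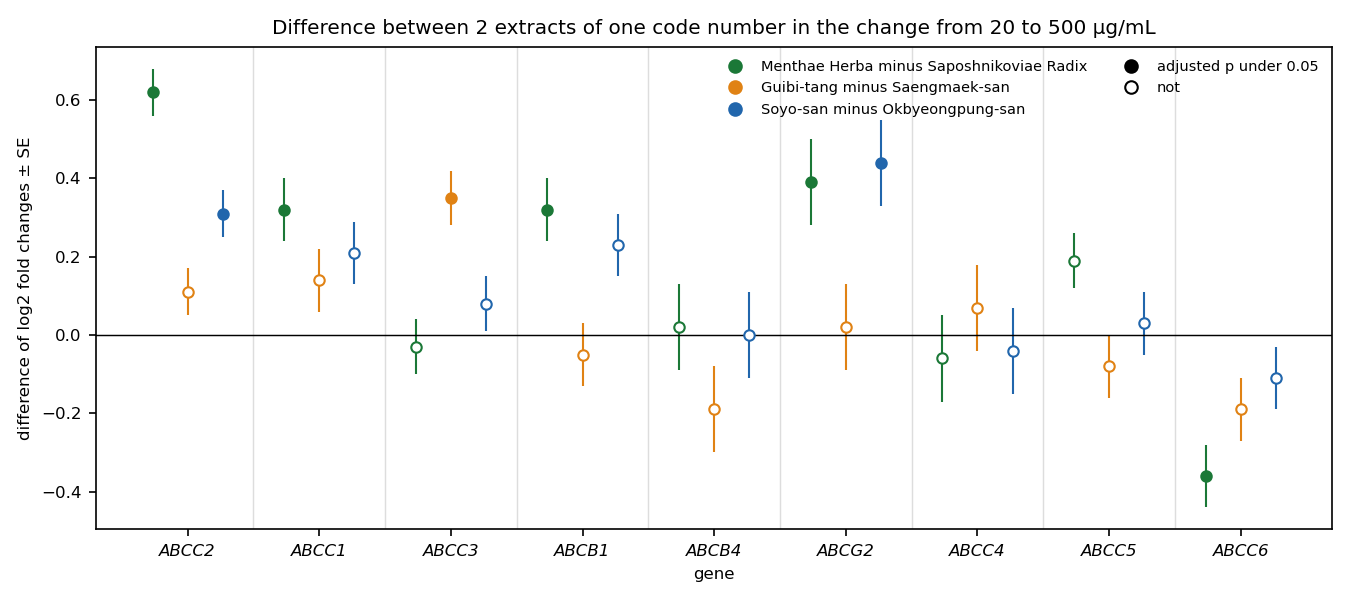
Difference between 2 extracts of one code number in the log2 change from 20 to 500 µg/mL ± SE, for each gene, filled where the adjusted p is under 0.05. Menthae Herba minus Saposhnikoviae Radix is farthest from 0 for ABCC2 at 0.62, and Guibi-tang minus Saengmaek-san is called for ABCC3 at 0.35.

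Against vehicle, ABCC2 and ABCG2 were higher at 500 µg/mL in all 6 extracts. The log2 difference of ABCC2 ran from 0.24 ± 0.04 with Okbyeongpung-san (adjusted p = 0.00031) to 1.00 ± 0.04 with Menthae Herba (6.8e-25), and that of ABCG2 from 0.30 ± 0.08 (0.011) to 0.82 ± 0.08 (6.2e-13) in the same extracts. Over all genes 0.523% were higher in all 6 at this dose. The vehicle libraries are shared by these comparisons, so the 6 are not independent of each other.

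Of the 9 genes, those called at 500 µg/mL against vehicle numbered 5 higher and 1 lower with Menthae Herba (39.8% of all genes called), 5 higher with Soyo-san (21.5%) and 4 higher and 1 lower with Guibi-tang (13.4%). Saengmaek-san had 3 higher (12.6%), Saposhnikoviae Radix 3 higher (5.8%) and Okbyeongpung-san 2 higher (9.11%). The genes called lower were ABCC6 with Menthae Herba (-0.34 ± 0.06, adjusted p = 1.4e-06) and with Guibi-tang (-0.24 ± 0.06, 0.0013). ABCB1 was called with Menthae Herba at 0.43, Soyo-san at 0.34 and Saposhnikoviae Radix at 0.23, and ABCC3 with Guibi-tang at 0.30.

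Vehicle replicate 1 is one of the libraries that stand apart from their group, with a chi-square per degree of freedom of 17.31 and 14.19 against the remaining vehicle libraries, where those had 3.214 between themselves. Without it, 20 of the 54 results at 500 µg/mL against vehicle were called, and 24 with it. Calls lost without it were ABCC5 with Menthae Herba (adjusted p = 0.11), ABCB1 with Saposhnikoviae Radix (0.056), ABCC1 with Saengmaek-san (0.077) and Soyo-san (0.078), and ABCB4 with Soyo-san (0.11). ABCB4 with Soyo-san was at 0.22 ± 0.08 (0.027), and with the library class as a covariate at 0.18 (0.15).

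Other libraries decided some of these calls too. Without replicate 1 of its 500 µg/mL dose, ABCC5 with Menthae Herba (adjusted p = 0.17) and ABCC1 with Saengmaek-san (0.075) were lost. ABCB1 with Saposhnikoviae Radix was lost without replicate 3 of that dose (0.075). ABCB4 with Soyo-san was lost without replicate 2 at 500 (0.17) or vehicle replicate 2 (0.077), and ABCG2 with Okbyeongpung-san without replicate 2 at 500 (0.052) or vehicle replicate 2 (0.084). The 6 calls of ABCC2 at this dose held without any single library.

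At 100 µg/mL, ABCC2 was higher than vehicle in all 6 extracts, by 0.16 ± 0.04 with Saengmaek-san (adjusted p = 0.02) to 0.37 ± 0.04 with Menthae Herba (2.7e-08). ABCG2 was higher with Menthae Herba at 0.32 ± 0.08 (0.0039), Soyo-san at 0.31 ± 0.08 (0.0099) and Okbyeongpung-san at 0.25 ± 0.08 (0.026). With only the groups compared, ABCC2 was lost with Saengmaek-san (0.15), Guibi-tang (0.16) and Okbyeongpung-san (0.097), and with no filter with Saengmaek-san (0.098) and Okbyeongpung-san (0.067). Over all genes 0.36% were higher in all 6 at this dose. In all, 12 of 54 results were called, each higher, with 4.14% of results over all genes higher. The other 3 came with ABCC1 (0.24 ± 0.05, 0.0017) and ABCC5 (0.15 ± 0.05, 0.043) in Menthae Herba and ABCB4 (0.24 ± 0.08, 0.042) in Soyo-san. ABCC5 was lost with no filter (0.22) and with only the groups compared (0.097). ABCG2 with Okbyeongpung-san was lost in the same 2 fits (0.089 and 0.085). ABCB4 was lost in them too (0.097 and 0.085), and with the library class as a covariate (0.17).

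Vehicle replicate 2 has the lowest ABCC2 and ABCG2 of the 3 vehicle libraries, and without it 6 of the 54 results at 100 µg/mL were called. ABCC2 was then lost with Saengmaek-san (adjusted p = 0.12) and Okbyeongpung-san (0.12), and ABCG2 with Soyo-san (0.082) and Okbyeongpung-san (0.16). Of the 100 µg/mL libraries, ABCC2 also needed replicate 1 of Saengmaek-san (0.11 without it) and replicate 3 of Okbyeongpung-san (0.11). ABCG2 needed replicate 1 of Soyo-san (0.059) and replicates 2 and 3 of Okbyeongpung-san (0.12 and 0.081). ABCC5 was lost without any one of its 6 libraries (0.051 to 0.21), and ABCB4 without vehicle replicate 1 (0.14) or 2 (0.13) or any Soyo-san replicate (0.08 to 0.13).

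At 20 µg/mL, 4 of 54 results were called against vehicle, all higher, with 2.5% over all genes. They were ABCC2 with Saposhnikoviae Radix at 0.19 ± 0.04 (adjusted p = 0.0055), Guibi-tang at 0.16 ± 0.04 (0.029) and Okbyeongpung-san at 0.16 ± 0.04 (0.021), and ABCG2 with Okbyeongpung-san at 0.26 ± 0.08 (0.035). Without vehicle replicate 2 or 3 there was 1 call, and without Okbyeongpung-san 20 µg/mL replicate 3 there were 2. ABCC2 with Guibi-tang was at 0.21 and 0.063 without vehicle replicate 2 and 3, and at 0.085 and 0.11 without its own replicates 1 and 2. ABCC2 with Okbyeongpung-san was at 0.2 and 0.055 without vehicle replicate 2 and 3 and at 0.19 without its replicate 3. ABCG2 with Okbyeongpung-san was lost without any vehicle replicate (0.052, 0.19 and 0.061) and without its replicates 2 and 3 (0.063 and 0.3). ABCC2 with Saposhnikoviae Radix was the 1 call that held under every alternative. Over the 6 extracts ABCC2 at 20 µg/mL was 0.13 to 0.19 log2 units above vehicle. It had an unadjusted p under 0.05 by edgeR in 6 of 6, and DESeq2 called it in 6 of 6. Whether this comes from the shared vehicle libraries was not tested.

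Soshiho-tang has no replicates, so its values have no test, and the intervals (95%, exact Poisson) cover counting error only. The label code of this mixture is shared with no other group. A difference from vehicle or from another extract therefore cannot be told apart from that code. ABCC2 was at 340 CPM (333 to 348) at 20 µg/mL, 404 (397 to 412) at 100 and 538 (529 to 546) at 500, with vehicle libraries at 259 to 287. ABCG2 was at 15.1 (13.6 to 16.7), 16.9 (15.4 to 18.6) and 20.9 CPM (19.2 to 22.8), above the vehicle range of 10.4 to 11.6 at each dose. At 20 µg/mL, ABCC2 and ABCG2 in this library were higher than in any library of the other 6 extracts at that dose, and the interval of ABCG2 overlaps their range of 11.1 to 14.7 CPM.

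ABCC3 with Soshiho-tang was at 59.2 CPM (56.2 to 62.4) at 20 and 86.0 (82.5 to 89.6) at 500 µg/mL, a ratio of 1.45 and the highest level of ABCC3 in the series. ABCB1 was at 69.4 and 83.9 CPM and ABCC1 at 147 and 175 CPM at these doses. ABCC6 was at 123 CPM (119 to 128) and 98.2 (94.5 to 102), and ABCB4 at 19.2 (17.5 to 21.0) and 15.2 (13.7 to 16.7). ABCC5 was at 30.2 and 29.4 CPM and ABCC4 at 15.6 and 17.5, with overlapping intervals.

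Known regulators and companions of these transporters were read from lists chosen with earlier results of these data known, so their counts are descriptions. Of 9 tested NRF2 targets, 8 were higher and 1 lower at 500 than at 20 µg/mL with Menthae Herba, 7 higher with Guibi-tang and with Saengmaek-san, 5 higher and 1 lower with Soyo-san, 3 higher with Saposhnikoviae Radix and 1 with Okbyeongpung-san. Of all genes 32.1%, 8.12%, 1.96%, 7.58%, 0.397% and 0.024% were called in either direction in this order of extracts. The quinone reductase NQO1 changed by 0.59, 0.45, 0.22, 0.42, 0.27 and 0.20 log2 units in this order (the last not called, adjusted p = 0.094), where ABCC2 changed by 0.87, 0.52, 0.42, 0.39, 0.25 and 0.08. AKR1B10, an aldo-keto reductase, rose in all 6, from 0.42 with Okbyeongpung-san to 1.46 with Menthae Herba. GCLM, a subunit of glutamate-cysteine ligase, rose in 5 of 6 extracts by 0.37 to 0.53. SLC7A11, the cystine importer, did not follow ABCC2: it rose with Menthae Herba (1.38) and Saengmaek-san (0.35), and its values with Guibi-tang, Soyo-san, Saposhnikoviae Radix and Okbyeongpung-san were -0.03, 0.25, -0.16 and -0.33, none of them called.

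Of 3 tested AHR targets, CYP1A1 rose in all 6 extracts, from 0.68 ± 0.08 with Saengmaek-san to 3.31 ± 0.07 log2 units with Soyo-san. ABCG2, a known AHR target, changed by 0.28 and 0.47 in these 2 extracts. With Menthae Herba, Saposhnikoviae Radix and Guibi-tang CYP1A1 rose by 3.08, 2.54 and 2.43, and ABCG2 by 0.73, 0.34 and 0.30. With Okbyeongpung-san CYP1A1 rose by 1.79 ± 0.07 (adjusted p = 2.4e-26) and ABCG2 differed by 0.04 ± 0.08. Of the 3 AHR targets, 2 were called higher with Menthae Herba (32.1% of all genes called) and Soyo-san (7.58%). In each other extract 1 was, with 0.024% to 8.12% of all genes called. AHRR, also of this list, was not called with Saposhnikoviae Radix (0.95), Okbyeongpung-san (0.44), Guibi-tang (0.09) or Saengmaek-san (0.03). The part of AHR in the ABCG2 results was not tested. Of 3 tested PXR and CAR targets, CYP3A5 rose with Menthae Herba (0.85), Guibi-tang (0.56) and Soyo-san (0.48). ALAS1, the first enzyme of heme synthesis, rose with Menthae Herba (0.46) and Guibi-tang (0.28) and was at 0.03 with Soyo-san (adjusted p = 0.81). CYP3A4, the usual readout of PXR, had too few counts to be tested, with 0.27 ± 0.115 CPM in vehicle and 0.198 ± 0.159 with Menthae Herba at 500 µg/mL.

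Of 4 tested proteins that anchor MRP2 in the membrane, 3 were lower at 500 than at 20 µg/mL with Menthae Herba. With Guibi-tang 1 was lower. Over all genes 32.1% and 8.12% were called in these 2 extracts. PDZK1, a scaffold protein, changed by -0.23 ± 0.06 (adjusted p = 0.0028) and -0.31 ± 0.06 (0.00043) in these 2 extracts, where ABCC2 itself rose. Of 24 other ABC transporters tested, 4 were higher and 3 lower at 500 than at 20 µg/mL with Menthae Herba. In this extract 32.1% of all genes were called. In the other 5 extracts edgeR called 0 of these 24 between these doses, and 0 to 5 were at an unadjusted p under 0.05. At 500 µg/mL against vehicle, 7 of these 24 were higher and 5 lower with Menthae Herba (39.8% of all genes called). Soyo-san had 2 higher and 1 lower (21.5%), Saposhnikoviae Radix 6 higher (5.8%) and Saengmaek-san 6 higher (12.6%). Guibi-tang had 4 higher (13.4%) and Okbyeongpung-san 2 higher (9.11%).

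Across the 19 replicated groups, the genes with a mean of at least 5 CPM whose group means followed ABCC2 most closely were AKR1B10 (Pearson r = 0.964), IL6R (0.956) and SYNJ2 (0.948). For ABCG2 they were ARHGAP18 (0.950), ABCB1 (0.931) and ATP1B1 (0.930). These 6 are the highest of 10667 genes compared, over 19 group means that share the vehicle and the dose scheme, and are given with no test.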

How the data were processed

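Total RNA of HepG2 was sequenced in 60 libraries. The values deposited are expected counts for each Ensembl gene, not scaled between libraries. Per the submitters' processing notes, FastQC 0.11.9, Trim Galore 0.6.5, STAR 2.7.3a and RSEM 1.3.3 were used with GRCh38, while annotation release, settings and strand were not given in the sources used here. Of nonzero values 71.9% were whole, and all were rounded to whole numbers before testing. RSEM divides reads that fit several genes, which bears on ABCC6 and its copies.

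Libraries were grouped by extract and dose from the sample titles. Symbols came from a gene-name table that held 56558 of 60675 identifiers, and positions from GENCODE v29. The 57 replicated libraries in 19 groups were fitted with edgeR 4.0.16 (R 4.3.3, limma 3.58.1): TMM scaling, filterByExpr with a minimum count of 10, robust dispersion, quasi-likelihood F tests and Benjamini-Hochberg adjustment over 16644 genes in each of 27 contrasts and a joint test. The standard error is the absolute log2 fold change over the square root of F. The common dispersion was 0.00345. CPM are counts over the TMM-adjusted total of tested genes. Library totals were 20446542 to 32386486 counts (median 25862356). The scripts were tested on simulated data.

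All 9 transporters were named. Of each other list, up to 3 genes called in at least 2 of 6 comparisons of 500 with 20 µg/mL were named, by mean absolute log2 fold change, with CYP1A1, NQO1 and CYP3A4 as readouts. For likeness, group means of log2(CPM + 0.5) were correlated for genes with a mean of at least 5 CPM. The members and lists were chosen with earlier results of these data known. Alternatives were DESeq2 1.42.0, its size factors (RLE), no filter, a replicate block, the library class, fits with only the groups compared and leaving out each library.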

Additional observations from a re-analysis of the deposited data

Results flagged for a closer look

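The change from 20 to 500 µg/mL differed among the 6 replicated extracts, by a test of that difference (edgeR's quasi-likelihood test, adjusted over all genes), for ABCC2 (F = 36.3), ABCC1 (8.96), ABCG2 (8.79), ABCC6 (6.91), ABCB1 (6.80) and ABCC3 (6.22).

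Between 2 extracts of one code number, the log2 changes differed for ABCC2 by 0.62, ABCG2 by 0.39, ABCB1 by 0.32, ABCC1 by 0.32 and ABCC6 by -0.36 (Menthae Herba minus Saposhnikoviae Radix). They differed for ABCC3 by 0.35 (Guibi-tang minus Saengmaek-san), and for ABCC2 by 0.31 and ABCG2 by 0.44 (Soyo-san minus Okbyeongpung-san). Groups of 3 libraries are too small for an outlier test of a single gene's value.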

How the results depend on the processing

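No called result changed its direction under any alternative, and 14 of the 23 calls between 500 and 20 µg/mL, 18 of 24 at 500 µg/mL against vehicle and 6 of 8 differences between paired extracts held under each fit and without each library. At 100 µg/mL against vehicle 5 of 12 did, and at 20 µg/mL 1 of 4. With no filter on low counts, 7 results at 100 µg/mL and 1 at 20 µg/mL were called against vehicle. In fits with only the groups compared these were 6 and 1. At 20 µg/mL, 7 were called with the library class as a covariate and 7 by DESeq2. The cause was not tested. The fits with only the groups compared have fewer samples and also set the filter, scaling, dispersion and adjustment anew.

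Leaving out each library in turn gave 21 to 24 calls between 500 and 20 µg/mL, 20 to 26 at 500, 6 to 14 at 100 and 1 to 5 at 20 µg/mL against vehicle, 7 to 9 paired differences and 6 genes in the joint test. Correlations of same-numbered libraries ran from -0.322 to 0.501 between 500 and 20 µg/mL of an extract and from -0.477 to 0.35 between an extract dose and vehicle, and were not all above 0.1 in any of these sets of 3, so the numbers were not taken to pair the samples. With a replicate block 23, 25, 13 and 4 results were called in the 4 kinds of comparison, in the order above, 8 paired differences and 6 joint tests. Over all genes, no filter lowered the share called between 500 and 20 µg/mL from 32.1% to 13.6% with Menthae Herba, 8.12% to 3.33% with Guibi-tang and 7.58% to 3.14% with Soyo-san. With Saengmaek-san the share went from 1.96% to 1.46%. It rose from 0.397% to 0.52% with Saposhnikoviae Radix and from 0.024% to 0.294% with Okbyeongpung-san. The fit with no filter keeps every gene with a count, so its share is taken over more genes. The standard error of a change between doses was 0.04 log2 units for ABCC2 and 0.07 to 0.08 for the less abundant ABCB4 and ABCC4, so smaller differences of the latter were not detectable at this depth and number of libraries. The vehicle is 3 libraries shared by all comparisons with it.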

Other observations

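Carriers and sensors outside the efflux family are given as values, from lists chosen with earlier results of these data known. Of 14 tested uptake carriers and other solute transporters, edgeR called 3 higher and 7 lower at 500 than at 20 µg/mL with Menthae Herba. In this extract 32.1% of all genes were called. Of these 14, 5 were lower with Soyo-san (7.58% of all genes), 1 higher and 3 lower with Guibi-tang (8.12%) and 2 lower with Saengmaek-san (1.96%). None was called with Saposhnikoviae Radix (0.397%) and Okbyeongpung-san (0.024%), where 2 and 0 were at an unadjusted p under 0.05. SLC22A7, the organic anion carrier OAT2, fell by 1.35 log2 units with Menthae Herba (adjusted p = 5.8e-11), by 0.71 with Guibi-tang (0.00024) and by 0.46 with Soyo-san (0.029). SLC51B, a subunit of the basolateral bile acid exporter, fell by 1.07 with Menthae Herba (1.5e-07) and by 0.62 with Soyo-san (0.0062). SLCO4C1 fell by 0.68, 0.45, 0.26 and 0.42 with Menthae Herba, Saengmaek-san, Guibi-tang and Soyo-san.

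Of 15 tested xenobiotic sensors and partners, 5 were higher and 5 lower at 500 than at 20 µg/mL with Menthae Herba. In this extract 32.1% of all genes were called. Of these 15, 2 were higher and 3 lower with Soyo-san (7.58% of all genes), 2 and 1 with Guibi-tang (8.12%) and 1 lower with Saengmaek-san (1.96%). edgeR called 0 with Saposhnikoviae Radix (0.397%) and Okbyeongpung-san (0.024%), where 3 and 0 were at an unadjusted p under 0.05. NR1H4, the bile acid receptor FXR, had a mean of 37.6 CPM at 20 and 13.3 CPM at 500 µg/mL of Menthae Herba and fell by 1.49 log2 units (adjusted p = 9.6e-26). It fell by 0.69 with Soyo-san (3.9e-13), 0.40 with Guibi-tang (7.2e-07) and 0.27 with Saengmaek-san (0.0024). NR0B2, which encodes SHP, a repressor known as an FXR target, rose by 0.78 with Menthae Herba (1.2e-13), 0.46 with Soyo-san (4.3e-06) and 0.26 with Guibi-tang (0.012). AHRR, the repressor of AHR, rose by 0.72 with Menthae Herba (0.019) and 0.84 with Soyo-san (0.041).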
